A study of Mus musculus with 41 samples.

Results

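Hmgcs1, Idi1, Fdps, Fdft1, Sqle, Lss, Msmo1 and Insig1 were followed across 41 mouse melanomas. These 8 genes encode 7 enzymes of cholesterol synthesis and 1 regulator of the pathway, and no uptake receptor is among them. They were taken by gene symbol as every probe set that names one of these genes alone, which gave 20 of the 34958 one-gene probe sets and 8 of 18194 genes. Of the 20 probe sets, 18 passed the filter on low signal, and each of the 8 genes had at least 1 that did. The remaining 2, one of Fdps and one of Msmo1, averaged 4.47 and 4.95 on the log2 scale and were not tested.

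All tumours came from mice of the strain named iBIP. In published descriptions, this is a melanoma model in which doxycycline turns on mutant BRAF in melanocytes, so that removing the drug turns the oncogene off. Doxycycline had been taken out of the drinking water for 0 days in 4 tumours, 1 day in 7, 2 days in 5, 3 days in 6, 6 days in 4 and 9 days in 3. Single tumours stood at 16 and 29 days, and 10 tumours had been off the drug for 63 to 163 days (3 at day 63, 2 each at days 77 and 121, and 1 each at days 90, 136 and 163). The last 10 are called late tumours here, and the labels do not say whether they were remnants or regrown. Skin was trimmed off each tumour before a piece of parenchyma was taken. Nothing in the labels ties each tumour to its own mouse, so p-values measure only the spread between these tumours. Of 10 melanocyte lineage genes, Sox10 lay between 8.30 and 11.28 and Mitf between 7.24 and 9.82 over all arrays. Others reached lower: Dct ran from 5.24 to 8.64, Tyrp1 from 4.78 to 8.32, Mlana from 5.01 to 7.68 and Pmel from 6.06 to 7.035. The level of the filter was 5.67, and Tyr, the pigment enzyme, and Gpr143 did not pass it.

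Cells make cholesterol from acetyl-CoA through mevalonate, farnesyl diphosphate, squalene and lanosterol. When sterols in the endoplasmic reticulum are low, SCAP carries the SREBP transcription factors to the Golgi, where proteases release them to switch on the genes of the pathway. INSIG proteins hold SCAP back when sterols are plentiful, and Insig1 is itself a target of SREBP. Proliferating tumour cells draw on the pathway for membranes, and sebaceous glands, adipocytes and myelin-forming cells are also known for heavy lipid synthesis.

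The promoters of the 4 genes with the steadiest late difference in these data are shown. SREBP is known to act on genes of the whole pathway, so being a target does not set these 4 apart. A window was also at hand for Lss and is not shown. Each line holds the 250 bases before the start site from RefSeq on the GRCm38.p6 build, read 5′ to 3′ on the gene's strand. Capitals mark matches on either strand to TCACNCCAC (a core of the sterol regulatory element), CCAAT (the NF-Y box) or CACGTG (the E-box). No matches overlapped in these windows. The Hmgcs1 window is chr13:119690101-119690350 (+), that of Idi1 chr13:8885356-8885605 (+), that of Msmo1 chr8:64733579-64733828 (-) and that of Insig1 chr5:28071162-28071411 (+).
Hmgcs1: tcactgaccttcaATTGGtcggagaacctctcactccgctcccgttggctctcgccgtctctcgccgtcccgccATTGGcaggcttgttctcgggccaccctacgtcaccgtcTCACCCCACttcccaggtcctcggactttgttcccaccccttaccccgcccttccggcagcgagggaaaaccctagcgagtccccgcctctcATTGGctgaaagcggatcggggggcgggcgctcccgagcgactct
Idi1: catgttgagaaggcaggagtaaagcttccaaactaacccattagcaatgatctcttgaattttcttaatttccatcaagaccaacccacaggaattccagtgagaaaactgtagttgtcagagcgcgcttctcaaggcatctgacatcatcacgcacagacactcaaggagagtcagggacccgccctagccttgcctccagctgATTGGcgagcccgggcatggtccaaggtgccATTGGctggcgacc
Msmo1: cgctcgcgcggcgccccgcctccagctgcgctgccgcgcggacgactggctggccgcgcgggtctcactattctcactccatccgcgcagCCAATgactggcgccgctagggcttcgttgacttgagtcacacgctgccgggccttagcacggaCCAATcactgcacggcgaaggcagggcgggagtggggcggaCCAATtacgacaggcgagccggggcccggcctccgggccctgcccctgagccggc
Insig1: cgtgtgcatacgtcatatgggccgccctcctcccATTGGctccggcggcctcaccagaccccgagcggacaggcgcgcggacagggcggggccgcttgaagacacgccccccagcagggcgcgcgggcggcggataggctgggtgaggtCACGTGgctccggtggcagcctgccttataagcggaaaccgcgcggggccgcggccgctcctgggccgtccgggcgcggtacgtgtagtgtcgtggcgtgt

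The Hmgcs1 window held 1 TCACNCCAC match, starting 137 bases before the start site, between CCAAT matches at 176 and 45 bases. That motif occurred in 1.05% of 32817 promoter windows of the same length. Hmgcs1 and Msmo1 had 3 CCAAT matches each, Idi1 had 2, and Insig1 and Lss had 1 each, against 33.8% of all windows with at least 1. Insig1 alone of these had a CACGTG match, 101 bases before its start, a motif present in 6.02% of windows. These letters were matched as text, and no binding was measured. RefSeq windows were at hand for 5 of the 8 genes, and Fdps, Fdft1 and Sqle were not analysed here.

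Technical features differed between the groups. Levels of the spike-in controls bioD and dap divided the arrays into 3 sets, a grouping made from the values that the labels do not name. The bioD level set apart set 1, and the dap level separated set 2 from set 3. Set 1 took in every array of days 2, 3 and 6 with 1 from day 1. Set 2 took 6 from day 1 with 8 late arrays, and set 3 took those of days 0, 9, 16 and 29 with 2 late arrays. Gapdh has control probe sets at its 3′ and 5′ ends, and the difference in level between these (the Gapdh gap), which widens as RNA is degraded, averaged 0.48 ± 0.11 (SD, n = 4) on the log2 scale at day 0 and 2.62 ± 1.39 (SD, n = 10) in late tumours. It exceeded 2 in 8 late tumours and 1 day 9 tumour. The labels name neither feature, and extraction or scan batches were not given in them.

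Late tumours carried more RNA of most of these genes than tumours still on doxycycline. Msmo1 was 3.35-fold, Idi1 2.92-fold, Hmgcs1 2.34-fold and Insig1 2.09-fold higher, on the log2(value + 16) scale, and Fdft1 was 1.54-fold higher. Sqle, Fdps and Lss did not pass the test. Thus 5 of 8 genes, each read by its brightest probe set, rose and none fell at a limma adjusted p under 0.05, against 48.6% of all 25803 tested probe sets called, 23.7% higher and 24.9% lower. The median difference of the 8 was 0.86 log2 units against -0.01 over all tested probe sets, and all 8 were above 0. Counting every probe set, 12 of 18 rose and 1 fell.

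Hmgcs1 makes HMG-CoA, an early intermediate of the pathway. At day 0 its levels were 10.85, 10.87, 11.35 and 10.38, and in late tumours they ran from 11.30 to 12.67 with a median of 12.29. Of the 10 late tumours, 9 lay above the highest day 0 tumour, and the day 77 tumour at 11.30 lay just under it. The difference was 1.23 ± 0.24 log2 units (SE; limma adjusted p = 1.01e-04; exact two-sided permutation p = 0.002).

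Idi1, which isomerises isopentenyl diphosphate, measured 8.43, 8.44, 9.12 and 7.79 at day 0. Late tumours spanned 9.39 to 11.04, with a median of 9.72. Every late tumour stood above every day 0 tumour, as was also so for 9.05% of all tested probe sets. The difference was 1.55 ± 0.29 log2 units (SE; limma adjusted p = 6.53e-05; exact two-sided permutation p = 9.99e-04, the smallest that 1001 assignments allow).

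Further down the pathway, Msmo1 removes methyl groups from the sterol ring. Its day 0 levels were 9.10, 8.40, 9.12 and 7.88, and its late levels ranged from 9.01 to 11.52 around a median of 10.14. The day 163 tumour, at 9.01, was the only late tumour within the day 0 range. The difference was 1.75 ± 0.33 log2 units (SE; limma adjusted p = 6.12e-05; exact two-sided permutation p = 0.004).

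Insig1, the regulator in the group, had the widest day 0 spread, with 7.22, 7.75, 8.29 and 6.06. Late tumours lay close together, from 7.75 to 8.75 with a median of 8.43, and 8 of 10 exceeded the highest day 0 tumour. The difference was 1.06 ± 0.24 log2 units (SE; limma adjusted p = 5.64e-04; exact two-sided permutation p = 0.004). Leaving out day 0 replicate 4, the tumour at 6.06, brought the difference to 0.64 with a limma adjusted p of 0.019. The calls of Hmgcs1, Idi1, Msmo1 and Insig1 held with each of the 14 tumours left out in turn.

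Fdft1, Sqle and Lss act on squalene: Fdft1 makes it, Sqle oxidises it and Lss folds the product into lanosterol. Fdft1 measured 8.54, 8.88, 9.20 and 8.28 at day 0 and 8.63 to 10.09 (median 9.38) in late tumours, so the groups overlapped, with 6 late tumours above all day 0 tumours. It rose by 0.62 ± 0.24 log2 units (SE; limma adjusted p = 0.0345). That call was lost without day 0 replicate 1 or 4 or without late replicate 1 or 4, where the adjusted p reached 0.157. The difference turned to -0.033 among arrays with a Gapdh gap of at most 2 and to -0.11 with the sebaceous gene level described further on as a covariate.

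Sqle stood at 9.22, 9.33, 9.66 and 8.31 on doxycycline and at 9.47 to 10.52 (median 9.63) late. The groups overlapped, and the difference of 0.65 ± 0.28 log2 units missed the threshold (SE; limma adjusted p = 0.0504). It passed when day 0 replicate 3 or late replicate 5, 6 or 9 was left out, with a lowest limma adjusted p of 0.027. Without day 0 replicate 4 the difference was 0.38 with an adjusted p of 0.312. The call also depended on the processing. Sqle passed with arrays centred on their medians, no further normalisation or a filter at the 60th percentile (limma adjusted p = 0.0391, 0.0444 and 0.0463). Lss measured 7.50, 7.44, 7.63 and 7.32 at day 0, and its late levels ran from 6.42 to 8.43 on both sides of these. Its difference was 0.05 log2 units, with a 95% confidence interval from -0.44 to 0.55. Fdps, which makes farnesyl diphosphate, differed by 0.26 (95% interval -0.29 to 0.80), with late tumours between 8.25 and 9.52 and day 0 tumours at 8.59, 8.89, 9.41 and 8.13.

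**Figure D1:**
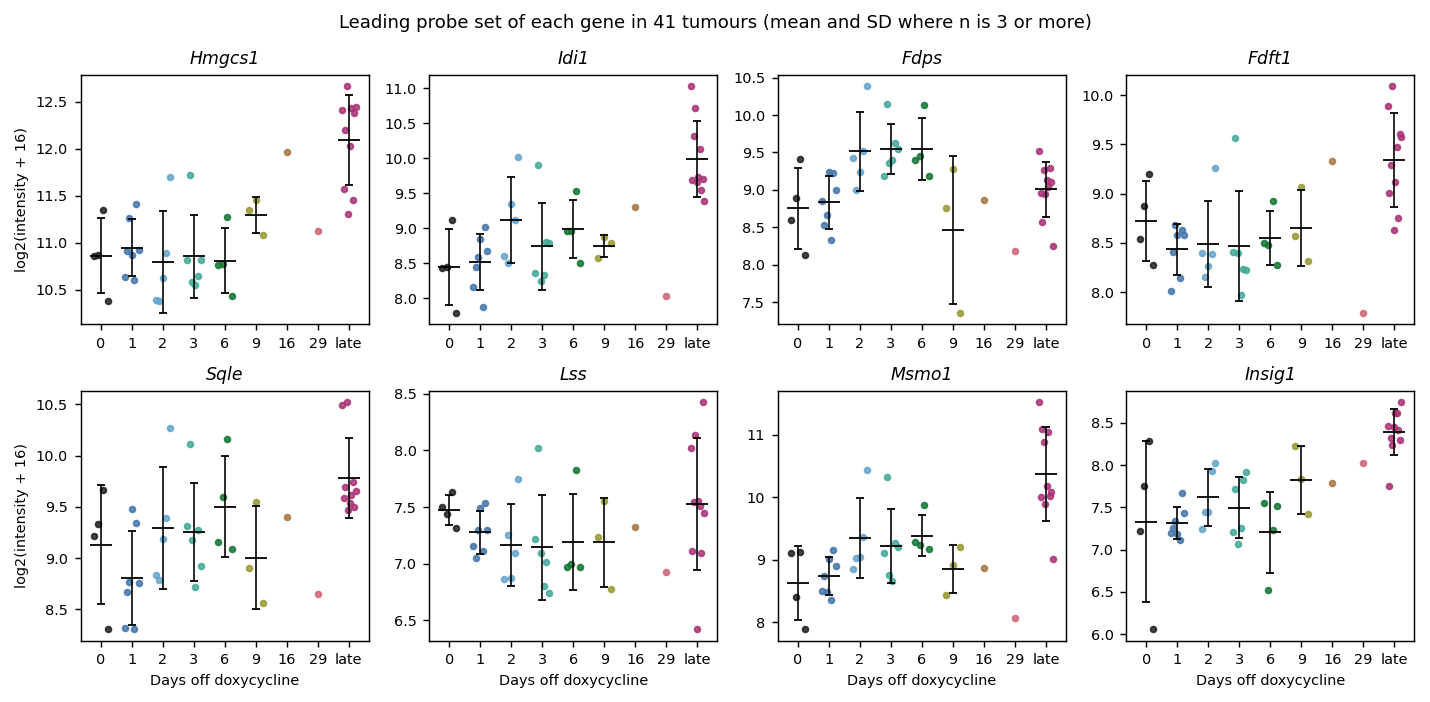
Log2(intensity + 16) of the brightest probe set of each gene, with 1 point per tumour, against days off doxycycline; late is days 63 to 163, and bars give the mean and SD of groups of 3 or more. The late points of Idi1 lie wholly above those of days 0 and 1, while Fdps is high at days 2 to 6 and the late Lss points lie on both sides of day 0.

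Different probe sets of one gene did not always agree. All 5 Hmgcs1 probe sets rose, by 0.64 to 1.36 log2 units, and the other Idi1 probe set (1423804_a_at) rose by 1.62 ± 0.34 (SE). The smallest Hmgcs1 rise was that of the dim 1441536_at, which averaged 5.41 at day 0, under the filter level of 5.67. For Lss, whose brightest probe set (1420013_s_at) did not change detectably, 1426913_at rose by 1.31 ± 0.35 (SE, limma adjusted p = 0.00275). The dim 1420014_at rose by 0.28 ± 0.10 (SE, limma adjusted p = 0.0184), with means of 5.25 at day 0 and 5.53 late, both under the filter level. The late values of 1426913_at ranged from 7.06 to 9.06 and those of day 0 were 6.31, 7.17, 7.45 and 6.05, so that 7 late tumours exceeded all day 0 tumours. For Fdft1, the second probe set (1448130_at) differed by 0.33 without a call (limma adjusted p = 0.234). The dim 1438918_at fell by 0.24 log2 units (adjusted p = 0.00195), and 1438919_x_at differed by -0.13 (adjusted p = 0.119). The late call of Fdft1 therefore rests on 1 of its 4 probe sets, and the absence of one for Lss on 1 of its 3.

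**Figure D2:**
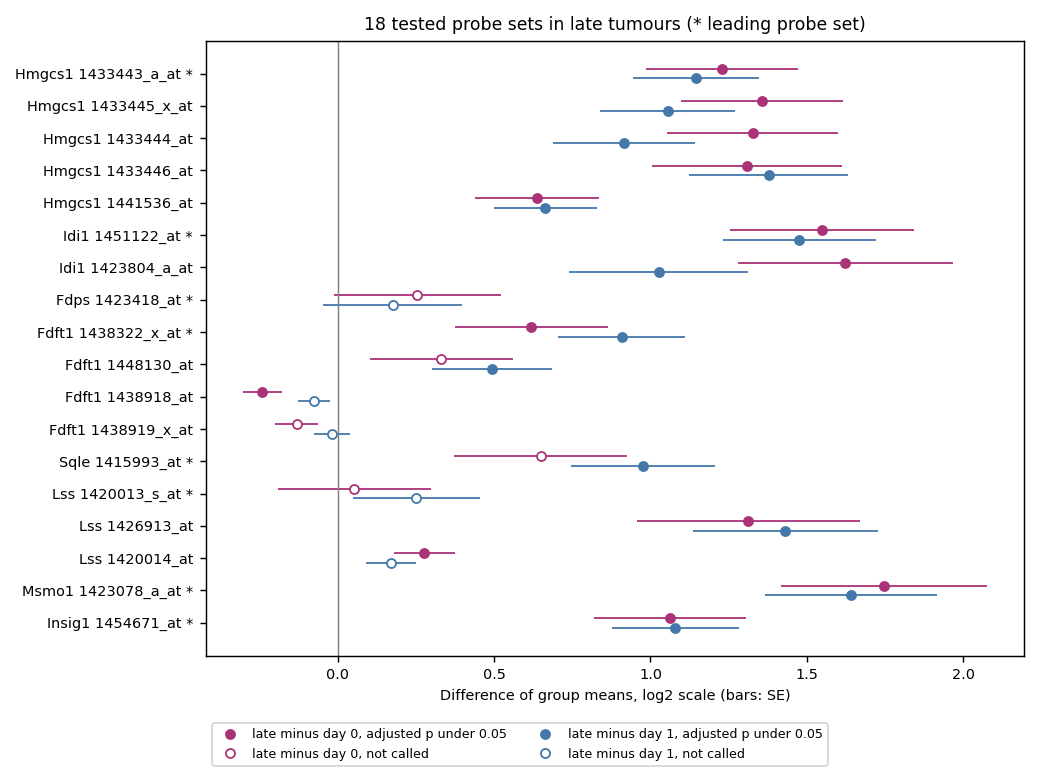
Difference of late tumours (n = 10) from day 0 (n = 4) and from day 1 (n = 7) for each of the 18 tested probe sets, in log2 units with SE bars; filled points had a limma adjusted p under 0.05 and a star marks each gene's brightest probe set. The Hmgcs1, Idi1, Msmo1 and Insig1 probe sets lie to the right of 0 in both comparisons, and those of Fdft1 and Lss are spread.

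Day 1 was the group whose arrays most resembled the late ones in spike-in level. Against it, 6 of 8 genes rose and none fell, where 50.8% of all tested probe sets were called, 25.8% higher and 25% lower. All 10 macrophage genes and all 10 T and NK cell genes fell in the same comparison, with median differences of -1.19 and -1.32 log2 units, and their part in the result was not tested. The median difference of the 8 was 1.03 log2 units, against 0.02 over all tested probe sets. Day 1 levels ran from 7.88 to 9.03 for Idi1 (median 8.58) and from 7.11 to 7.67 for Insig1 (median 7.25). Both were below every late tumour, as 3.91% of all tested probe sets were, and the differences were 1.48 ± 0.24 and 1.08 ± 0.20 log2 units (SE).

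Msmo1 rose by 1.64 ± 0.27 against day 1, Hmgcs1 by 1.15 ± 0.20 and Fdft1 by 0.91 ± 0.20 log2 units (SE). Sqle, not called against day 0, rose by 0.98 ± 0.23 (SE; limma adjusted p = 7.16e-04), from 8.31 to 9.48 (median 8.75) at day 1. Whether its change differed between these comparisons was not tested, and they share the late tumours. Fdps differed by 0.18 and Lss by 0.25, neither called. Within spike-in set 2, with 6 day 1 and 8 late tumours, 6 genes were again called, where 46.8% of all tested probe sets were, with Msmo1 at 1.89, Idi1 at 1.64, Sqle at 1.14, Hmgcs1 at 1.05, Insig1 at 1.03 and Fdft1 at 0.87 log2 units. RNA quality was not matched in this set. Its Gapdh gaps ran from 0.36 to 1.07 at day 1 and up to 4.06 late, where all but replicates 5 and 8 exceeded 2.

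Tumours off doxycycline for 6 or 9 days were also below the late ones. In that comparison 5 of 8 genes rose and none fell, where 33.3% of all tested probe sets were called, 16.2% higher and 17% lower. Here 7 of 10 macrophage and 6 of 10 T and NK cell genes fell. Msmo1 rose by 1.25 ± 0.28, Idi1 by 1.12 ± 0.25, Hmgcs1 by 1.04 ± 0.20, Insig1 by 0.88 ± 0.20 and Fdft1 by 0.74 ± 0.20 log2 units (SE; limma adjusted p from 2.66e-04 to 0.00565). Sqle (0.53; adjusted p = 0.0756), Lss (0.34) and Fdps (0.01) were not called. Sqle passed at an adjusted p of 0.0398 without day 6 replicate 3. No spike-in set held both day 6 and late tumours, and a block term for the sets, which links them through 1 array of day 1, left 2 genes called, where 12% of all tested probe sets were. With the Gapdh gap as a covariate none was, where 4.12% were.

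In the first 9 days off the drug, 1 of these genes passed the test by its brightest probe set, on 1 day. The dim Fdft1 probe set 1438918_at fell at days 2 and 9, by 0.21 and 0.29 log2 units (limma adjusted p = 0.0367 and 0.0308). At day 1 none of the 8 was called, where 13.8% of all tested probe sets were (6.32% higher and 7.51% lower), and at day 2 none was, where 17.3% were (7.97% higher and 9.31% lower). Fdps alone rose at day 3, where 24.5% of all tested probe sets were called (11.7% higher and 12.8% lower). No gene was called at day 6, where 17.1% were (8.05% higher and 9.05% lower), or at day 9, where 5.22% were (2.24% higher and 2.98% lower). At an unadjusted limma p under 0.05 the counts were 0 at days 1 and 9 and 1 at days 2 and 6, in both cases Fdps. The exact permutation test put 1 gene under 0.05 at day 6, Msmo1 (two-sided p = 0.0286), and none at days 1, 2 and 9.

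Among the groups of 3 or more tumours, Fdps had its highest means at days 2, 3 and 6. Against 8.59, 8.89, 9.41 and 8.13 at day 0, it measured 9.43, 9.00, 9.24, 9.52 and 10.39 at day 2, 9.18 to 10.14 (median 9.47) at day 3 and 9.39, 9.46, 10.13 and 9.19 at day 6. At day 9 its values were 8.76, 9.27 and 7.35. The high tumours were thus those of days 2, 3 and 6, and each of these groups overlapped day 0. The differences from day 0 were 0.76 ± 0.30 at day 2, 0.79 ± 0.29 at day 3 and 0.79 ± 0.32 at day 6 (SE; limma adjusted p = 0.0762, 0.0442 and 0.0832), and -0.29 ± 0.34 at day 9. Msmo1, by comparison, differed by 0.72, 0.59, 0.76 and 0.22 and Idi1 by 0.68, 0.30, 0.55 and 0.31 on these days, none called, and differences between the genes were not tested.

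All arrays of days 2, 3 and 6 fell in spike-in set 1, and none of day 0 did. In a block term for the sets, a single array of day 1 links set 1 to set 2. Only the late arrays, 8 in set 2 and 2 in set 3, then link set 2 to set 3, where day 0 lies. The block term gave a difference of -0.10 for Fdps at day 3 (limma adjusted p = 0.961), so day and set cannot be told apart. The day 3 call was also lost without any one of day 0 replicates 1, 2 and 4 and day 3 replicates 2, 4, 5 and 6 (adjusted p up to 0.212). Over days 0, 1, 2, 3, 6, 9 and late as a whole, limma's F test called 7 of 8 genes, all but Lss, where it called 64.4% of all tested probe sets.

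Other synthesis enzymes gave a mixed picture in late tumours. Of 12 tested, 4 rose against day 0 while none fell, with a median difference of 0.27 log2 units, where 23.7% of all tested probe sets were higher and 24.9% lower. Cyp51, which demethylates lanosterol, rose by 0.91 ± 0.27, Lbr, a sterol reductase that also sits in the nuclear envelope, by 0.86 ± 0.15, Sc5d, a late desaturase, by 0.66 ± 0.25, and Pmvk, which phosphorylates mevalonate phosphate, by 0.41 ± 0.14 (SE). The late-step enzymes Nsdhl (0.18) and Dhcr7 (-0.24) were not called. Dhcr7 had fallen by 0.90 at day 2 and by 0.86 at day 3 (limma adjusted p = 0.0477 and 0.0376), Lbr had risen by 0.87 and 0.57 on these days, and Pmvk had risen by 0.48 at day 1 and 0.45 at day 2.

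Among regulators of SREBP, 2 of 7 tested genes rose and 1 fell in late tumours, a share of calls no higher than the 48.6% of all tested probe sets. Insig2, the second INSIG, rose by 0.61 ± 0.15 and Rnf139, a ubiquitin ligase of the endoplasmic reticulum, by 0.51 ± 0.11, and Scap, the SREBP escort, fell by 0.63 ± 0.17 log2 units (SE). Rnf139 had already risen by 0.43 at day 2, 0.52 at day 3 and 0.40 at day 6 (limma adjusted p = 0.0178, 0.00219 and 0.0353). Late against days 6 and 9 it differed by 0.17 and was not called, while Insig2 rose by 0.47. The transcription factor genes themselves, Srebf2 (-0.17) and Srebf1 (0.17), were not called late against day 0.

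Genes of cholesterol uptake, transport and efflux differed in both directions, with 1 higher and 5 lower of 9 tested, where 23.7% of all tested probe sets were higher and 24.9% lower. Stard4, a sterol carrier, rose by 0.68 ± 0.21 log2 units (SE). Abcg1, a sterol exporter, fell by 1.18, Lrp1, a lipoprotein receptor, by 0.89, Npc2 and Npc1, which move cholesterol out of lysosomes, by 0.72 and 0.42, and Scarb1, the HDL receptor, by 0.69. The exporter Abca1 had risen by 0.82 at day 3, 0.84 at day 6 and 0.90 at day 9 and differed by 0.41 late (limma adjusted p = 0.0569).

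Fatty acid synthesis enzymes included larger late differences than any of the 8 genes. Of 12 tested, 4 rose and none fell, again where 23.7% of all tested probe sets were higher: Elovl6, an elongase, by 2.38 ± 0.64, Scd1, a desaturase, by 2.08 ± 0.38, Fads1, another desaturase, by 1.44 ± 0.23 and Acss2, which makes acetyl-CoA from acetate, by 0.87 ± 0.16 log2 units (SE). Fasn and Scd2 (0.43 each) were not called. Fads1 had already risen by 0.77 at day 1, and Acss2 by 0.50 at day 3 and 0.58 at day 6 (limma adjusted p = 0.0298, 0.0379 and 0.0353). Elovl6 and Scd1 were not called on days 1 to 9.

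**Figure D3:**
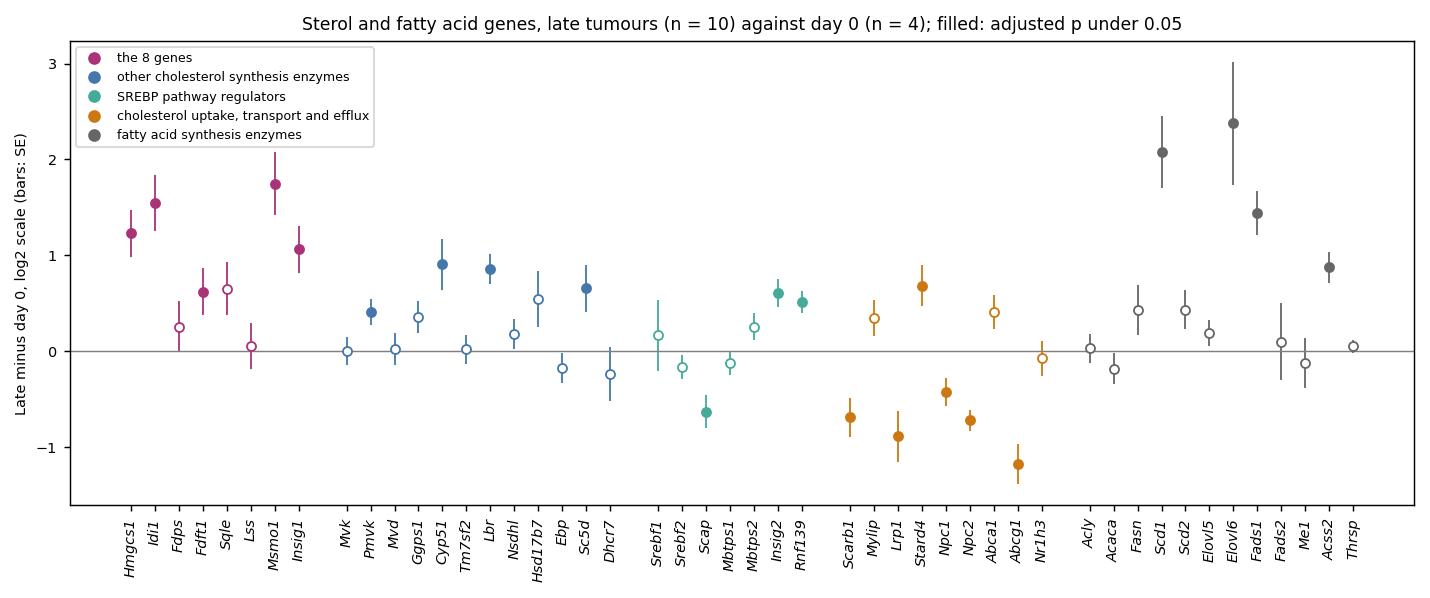
Difference of late tumours (n = 10) from day 0 (n = 4) in log2 units with SE bars for the 8 genes and 4 lists of related genes; filled points had a limma adjusted p under 0.05. Filled points of the other synthesis enzymes and the fatty acid enzymes lie above 0, 4 in each list, and 5 of the 6 filled points of uptake, transport and efflux lie below it.

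On several early days, 1 tumour was the highest of its group for most of the 8 genes. Day 0 replicate 3 was the highest of its group for all 8 genes and day 0 replicate 4 the lowest for all 8, where over all tested probe sets those tumours took these places in 25% and 25.7%. Day 2 replicate 5 was highest for 8 of 8 (20.7% of all probe sets), day 3 replicate 2 for 7 (15.4%) and day 6 replicate 3 for 7 (17.6%). Day 3 replicate 2, for instance, held 11.72 for Hmgcs1 and 10.33 for Msmo1, where the other day 3 tumours stopped at 10.82 and 9.26. No late tumour was highest for most of the 8. Replicates 1 and 4 were highest for 3 genes each (4.16% and 10.3% of all probe sets), and replicate 5 was lowest for 4 (10.5%). Replicate 10 was highest for Insig1 (8.75) and lowest for 3 genes (13.2% of all probe sets), Msmo1 (9.01) and Idi1 (9.39) among them. As a description over the 41 tumours, whose groups and arrays the genes share, Fdps had a Pearson r of 0.05 with Hmgcs1 and 0.11 with Insig1, where Idi1 and Msmo1 had one of 0.94.

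The mean of the 8 genes was 8.02 to 9.22 at day 0 and 9.10 to 10.17 late, so that day 0 replicate 3, at 9.22, reached into the late range. The highest late tumours were those of day 63, replicate 1, and day 77, replicate 4, at 10.17 and 10.07. Among late tumours, Hmgcs1 stood at 12.03 ± 0.58 on days 63 and 77 and at 12.15 ± 0.42 on days 90 to 163, and Idi1 at 10.28 ± 0.61 and 9.70 ± 0.28 (SD, n = 5 each).

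Over the 41 tumours, the gene whose level most resembled that mean was Cyp51, another enzyme of the pathway (Pearson r = 0.94, Spearman rho = 0.87, of 14311 genes compared). Next came Muc15, Sh3yl1, Gsdma, Tlcd4, Rdh9, Acss2, Pank1, Tlcd1 and Spag1, with r from 0.84 to 0.81, and the least alike was Acads, an enzyme of fatty acid breakdown (r = -0.79). These values describe tumours that share groups and spike-in sets. With each group's mean removed, Cyp51 kept an r of 0.89 and Muc15 one of 0.72.

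Markers of sebaceous glands, which make lipids for the skin, were higher in late tumours as well. In bulk tissue, more cells of a type and more RNA per cell cannot be told apart. Of 7 sebaceous gland genes tested, 6 rose against day 0, where 23.7% of all tested probe sets were higher. Among them, Far2 rose by 3.33, Fa2h by 3.30, Elovl3 by 2.97 and Mgst1 by 2.03 log2 units. The mean level of the 7 went from 6.46 to 6.67 at day 0 to 7.03 to 9.48 late. Fa2h also serves myelin and Mgst1 is made in many cells. Early tumours with high levels of the 8 genes were high in these too in part, with a sebaceous level of 9.05 in day 2 replicate 5 and 8.44 in day 6 replicate 3, but 6.46 in day 0 replicate 3.

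With the sebaceous level as a covariate, 2 of 8 genes were called against day 0, where 26.1% of all tested probe sets were, Insig1 higher at 1.06 (limma adjusted p = 0.0172) and Lss lower at -0.88 (adjusted p = 0.00478). Hmgcs1 (0.45), Idi1 (0.73) and Msmo1 (0.60) were then above 0 but not called. The late tumours lowest in sebaceous genes, replicates 5, 10 and 8 at 7.03, 7.16 and 7.76, had means of the 8 genes of 9.10, 9.32 and 9.29, against 9.21 to 10.17 in the other late tumours.

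Schwann cell and myelin genes had a mean level of 6.94 to 7.81 at day 0 and 8.09 to 9.24 late. Of these, 4 of 9 were higher, Mal by 5.27 and Mbp by 4.48 log2 units, where 23.7% of all tested probe sets were higher. With that level as a covariate none of the 8 genes was called against day 0, while calls over all tested probe sets dropped from 48.6% to 1.96%, and against day 1 Idi1 (1.32), Msmo1 (1.60) and Sqle (0.94) were called, where 18.4% were. For the lists that follow, 23.7% of all tested probe sets were higher and 24.9% lower late against day 0. Higher were 3 of 9 keratinocyte genes and 2 of 5 adipocyte genes (1 fell), and lower were 8 of 9 cell division genes. Of the adipocyte genes, Fabp4 rose by 3.92 while Adipoq did not pass the test. Also higher were 5 of 10 skeletal muscle genes and 3 of 8 melanocyte lineage genes, among them Mitf by 1.22 log2 units. The part of these last groups in the late difference was not tested beyond the keratinocyte covariate, with which 4 of 8 genes were called against day 0, where 44.1% of all tested probe sets were.

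RNA quality moved with the late group too. With the Gapdh gap as a covariate, 4 of 8 genes were called against day 0, where 24.1% of all tested probe sets were: Msmo1 at 1.61, Idi1 at 1.38, Insig1 at 1.10 and Hmgcs1 at 0.78 log2 units. Among arrays with a gap of at most 2, which left 2 late tumours, Msmo1 (1.32), Idi1 (1.16) and Insig1 (1.10) were called and Hmgcs1 was not (0.52; limma adjusted p = 0.259), where 25.8% of all tested probe sets were called. Within spike-in set 3, with 4 day 0 and 2 late tumours, Hmgcs1 (1.55) and Idi1 (1.11) were called, while Msmo1 (0.92) and Insig1 (1.19) were not, where 22.7% of all tested probe sets were called. The block term for the sets had to give the same differences. Every day 0 array is in set 3 and only the late group spans sets 2 and 3, so the 8 late arrays of set 2 add nothing to them. With the spread taken over all tumours, Insig1 was called as well, where 34.5% were called.

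**Figure D4:**
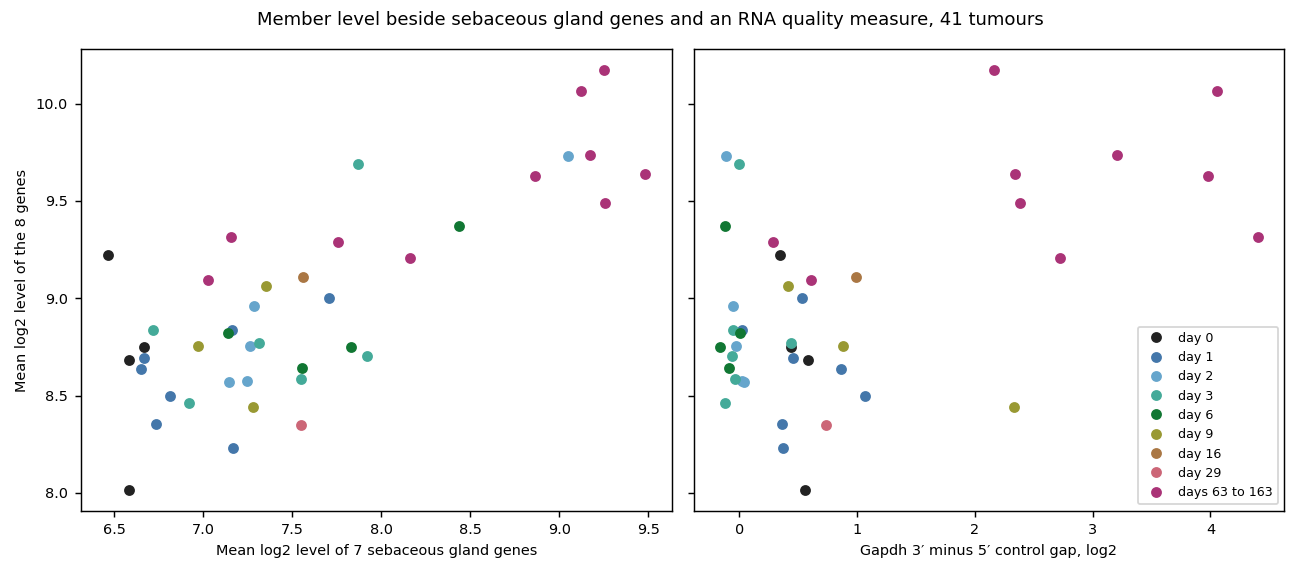
Mean log2 level of the 8 genes in each of 41 tumours against the mean log2 level of 7 sebaceous gland genes (left) and against the Gapdh 3′ minus 5′ gap in log2 units (right), coloured by days off doxycycline. Late tumours with sebaceous levels near 7 or Gapdh gaps under 1 have means of the 8 genes between 9.10 and 9.32, at or above most earlier tumours.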

How the data were processed

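Per the labels' protocols, RNA from pieces of 41 mouse melanomas was made into biotinylated cRNA for Affymetrix whole-genome mouse arrays. The authors deposited 1 linear intensity per probe set and array. MAS5 and RMA are named in the submitters' processing notes, and which of them made the values, their versions and the genome build are not given in the sources used here. Arrays have no sequencing depth, so their number limits the precision.

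The deposited intensity was turned into log2(value + 16) and quantile normalised over 45101 probe sets. The 25803 one-gene probe sets above the 40th percentile of their array in at least 3 arrays were tested with limma 3.58.1 in R 4.3.3, in one model of group means that used all 41 tumours (32 residual degrees of freedom), and p-values were adjusted by Benjamini-Hochberg over all of them. A gene is counted by its probe set of highest mean over all arrays. Late tumours were compared with days 0 and 1 and with the average of days 6 and 9, and days 1 to 9 with day 0. Days 16 and 29, with 1 tumour each, entered no comparison. The difference was also tested per gene by an exact two-sided permutation of the tumours. Promoters were searched with Python 3.11.15. The fit was tested on simulated data with known changes.

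Named genes were all probe sets of the 8 genes, a standing list of sterol genes, the genes of lowest p in each pathway list, and the genes most and least like the 8. The members and all lists were chosen with earlier results of these data known. Alternatives changed the normalisation, pseudocount, filter, probe set choice, variance model, array weights, spike-in set, RNA quality, late days and cell type markers, and left out each tumour in turn.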

Additional observations from a re-analysis of the deposited data

Results flagged for a closer look

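Each of the 8 genes was looked at in 6 groups of tumours, 48 tests in all, and in 8 of them 1 tumour lay far from the rest of its group. Chance gives about 1 in 20 for separate tests, but these share tumours and the genes are correlated, so the count is not 8 separate findings. Day 3 replicate 2 was far above the other 5 tumours of its day for Hmgcs1 (11.72 against 10.82 for the next), Idi1 (9.90 against 8.81), Fdft1 (9.57 against 8.41) and Msmo1 (10.33 against 9.26). Day 6 replicate 3 stood apart for Lss (7.83 against 6.996) and Msmo1 (9.87 against 9.27), and day 2 replicate 5 for Fdft1 (9.26 against 8.39). Late replicate 2 was far below its group for Insig1 (7.75 against 8.24 for the next lowest).

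The single day 16 tumour, which entered no comparison, lay above every day 0 tumour for Hmgcs1 (11.96 against a highest of 11.35), Idi1 (9.30 against 9.12) and Fdft1 (9.33 against 9.20). The single day 29 tumour, also in no comparison, lay below every day 0 tumour for Fdft1 (7.79 against a lowest of 8.28) and Lss (6.93 against 7.32).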

How the results depend on the processing

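Of the 8 genes, 1 was called at day 3, 5 in late tumours against day 0, 6 against day 1, 5 against days 6 and 9, and 7 over all groups. Of all tested probe sets, 24.5%, 48.6%, 50.8%, 33.3% and 64.4% were called in these comparisons, in that order. The day 3 call went to 0 with no filter, probe sets averaged per gene, array weights, a 2-fold limit, the spike-in block, the Gapdh covariate or the Schwann cell covariate. Against day 0 late, 6 genes were called with arrays centred on their medians, no further normalisation or a filter at the 60th percentile. Of all tested probe sets, 47.5%, 48.4% and 53.3% were called with these. The count was 3 with the spike-in block, 3 with Gapdh gaps of at most 2, 2 within spike-in set 3, 2 with the sebaceous covariate and 0 with the Schwann covariate. The spike-in block and set 3 alone rest on the same late minus day 0 differences. Against days 6 and 9 the count was 3 with a 2-fold limit, 2 with the spike-in block, 0 with the Gapdh covariate, 0 with gaps of at most 2, 3 with the sebaceous and 0 with the Schwann covariate. Against day 1 it was 3 with gaps of at most 2 and 3 with the Schwann covariate. Over all groups it was 4 with the Gapdh covariate, 2 with gaps of at most 2, 4 with the sebaceous and 3 with the Schwann covariate. The share of all tested probe sets called moved with the setting too, as given above for several of these. A lower count is therefore not by itself a result about the 8 genes. At days 2 and 6, 1 gene each was called with gaps of at most 2 (Fdps, higher) and 1 each, lower, with the sebaceous covariate. Fdft1 late against day 0 became -0.033 with gaps of at most 2 and -0.11 with the sebaceous covariate, and Fdps at day 3 became -0.10 with the spike-in block. Leaving out single tumours gave 0 to 1 genes at days 2, 3 and 6, 0 to 0 at days 1 and 9, 4 to 6 late against day 0, 6 to 6 against day 1, 5 to 6 against days 6 and 9, and 7 to 7 over all groups. The 1 gene at days 2 and 6 was Fdps, without day 0 replicate 3. With single tumours left out, 42% to 51.1% of all tested probe sets were called late against day 0. The range was 46.6% to 53.9% against day 1 and 21.3% to 39.2% against days 6 and 9. Blocked values of days 2, 3 and 6 rest on 1 array of day 1, and their differences from day 0 also on the late arrays of sets 2 and 3. Fewer samples enter the restricted sets, and otherwise the cause was not tested. The cell type covariates were chosen after seeing the data. No paired analysis was possible because the labels number no replicates.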
